A study of Homo sapiens with 4 samples.

Results

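MOLM13 cells treated with SD70 and MI-503 together were set against MOLM13 cells treated with MI-503 alone. The comparison describes SD70 in the presence of MI-503, an agent known to block the binding of menin to MLL. With 1 library on each side, the difference also holds any variation between cultures and libraries. MOLM13 is an established cell line from a human acute myeloid leukaemia with an MLL::AF9 fusion. RNA was sequenced after 12 h, with 1 library for each treatment: the combination of SD70 and MI-503, MI-503, SD70, and DMSO, the vehicle. Both libraries of the comparison carried MI-503, and the SD70 and DMSO libraries, which share no library with them, show the same agent added without it. The sources used here do not give doses or the number of cultures behind each library. Genes were taken as members where they were protein-coding and averaged at least 1 FPKM (fragments per kilobase of exon, scaled between libraries) over the combination and MI-503 libraries. This left 9878 of the 19951 protein-coding genes in the tables. Just inside that limit lay ANKAR and GPR3, with means of 1.001 and 1.004 FPKM, and just outside it BBS9 and OMG, with means of 0.9988 and 0.9991 FPKM.

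Menin is the adaptor that brings MLL and its fusions to genes such as the HOXA cluster and MEIS1, whose sustained activity keeps leukaemic blasts immature. MI-503 occupies the pocket of menin that MLL binds. SD70 is known as a compound that inhibits KDM4C, a demethylase that removes methyl groups from lysine 9 of histone H3, a mark of silent chromatin, and KDM4C has been described as a cofactor of MLL fusions.

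The libraries held 15093444 recovered reads for the combination, 15937390 for MI-503, 14695753 for SD70 and 15550915 for DMSO. The labelled cell type was checked against its markers. Of 8 myeloid markers 7 were above 1 FPKM, with CEBPA at 173 FPKM and LYZ at 329 FPKM in the combination, while ANPEP was at 0.425 FPKM. The 5 erythroid markers summed to 0 and 0.0300 FPKM in the combination and MI-503, the B cell, megakaryocyte and stromal markers to between 0.0346 and 1.10 FPKM, and the 5 epithelial markers to 2.63 and 1.83 FPKM, of which KRT18 made 2.29 and 1.55 FPKM and KRT8 0.338 and 0.279 FPKM, while EPCAM, KRT19 and CDH1 were listed at 0. The 5 T cell markers summed to 14.6 and 9.97 FPKM, of which TRAC made 14 and 8.66 FPKM, with CD3E and CD2 listed at 0. Mitochondrial ribosomal RNA took 1.433% of the reads in the combination and 0.9277% in MI-503, against 1.497% with SD70 alone and 0.8526% in DMSO, and its part in the results was not tested. In bulk RNA, fewer cells of one kind and less RNA per cell cannot be told apart.

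SD70 on top of MI-503 gave a small, mostly upward set of large differences. A gene was counted as different where the fold, taken as the difference of log2(FPKM + 1), was at least 2, a scale that understates the change of low genes. By that measure 156 genes were higher in the combination, 1.58% of those tested, and 75 were lower, 0.759%; together they made 2.34%. Of these 231 genes 67.5% were higher. That share came to 80.6% with all libraries brought to the same FPKM total and to 79.3% with the median gene set to 0. It fell to 55.41% over genes averaging at least 5 FPKM and to 59.18% with a pseudocount of 5. The median log2 fold over all 9878 genes was -0.07, with quartiles at -0.31 and 0.16. At 1.5-fold 508 genes were higher, 5.14%, and 838 lower, 8.48%, a balance that turned to 659 higher and 584 lower at equal FPKM totals and to 649 and 603 with the median gene at 0. At any size 4181 genes were higher, 42.3%, and 5697 lower, 57.7%, which became 4987 higher and 4891 lower at equal FPKM totals. No gene was 4-fold lower and 10 were at least 4-fold higher. The genes higher in the combination had medians of 8.95 FPKM in the combination and 2.77 FPKM in MI-503. The lower genes had medians of 10.2 and 25.1 FPKM. Of the 156 higher genes 103 were under 5 FPKM in MI-503. Under 1 FPKM there were 34, which passed the filter only through their level in the combination. Filter and fold rest on the same libraries, so the choice of genes favours these levels. With 1 library per treatment there is no replicate check and no test, and the intervals given below are exact 95% counting intervals on the ratio of FPKM without a pseudocount, which compare these libraries and cover counting error only.

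**Figure D1:**
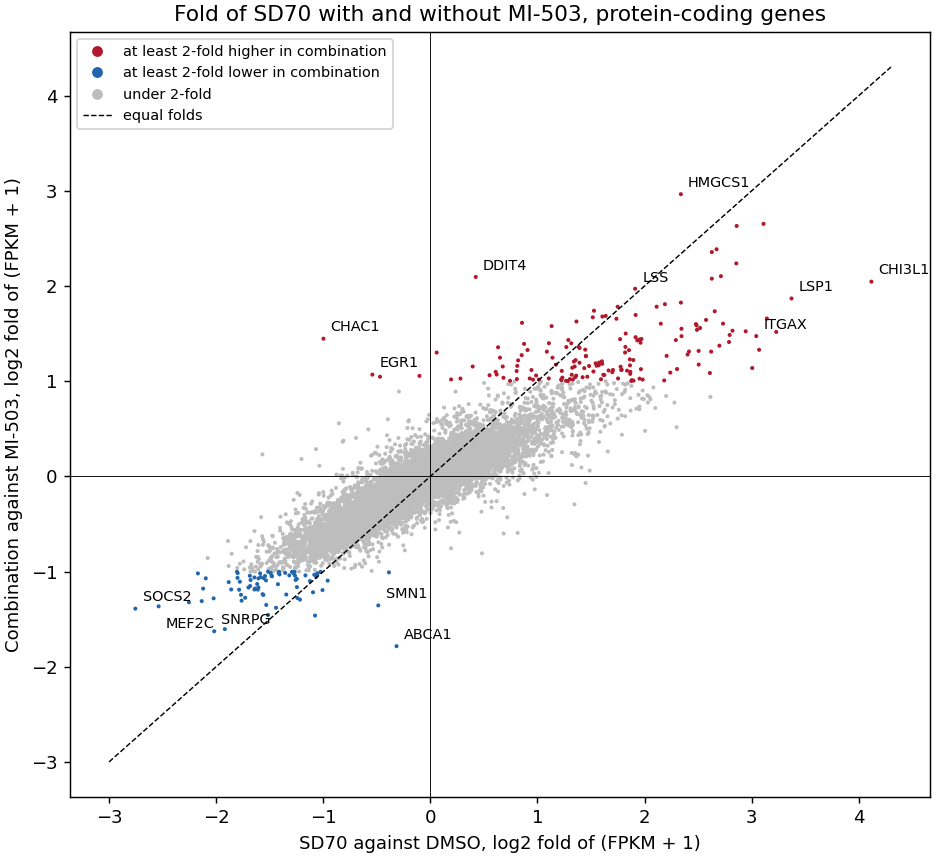
Log2 fold of the combination against MI-503 (vertical axis) and of SD70 against DMSO (horizontal axis), both on log2(FPKM + 1), for the 9878 protein-coding genes, 1 point per gene. Red points are the 156 genes at least 2-fold higher in the combination, blue points the 75 at least 2-fold lower, and the dashed line marks equal folds, below which most of the red points lie.

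The genes that differed with SD70 on top of MI-503 mostly differed with SD70 alone as well. Of the 156 higher genes 127 (81.4%) were also at least 2-fold higher with SD70 than with DMSO, and of the 75 lower genes 71 (94.7%) were also 2-fold lower. Turned round, these were 27.1% of the 468 members 2-fold higher with SD70 alone and 11.9% of the 595 that were 2-fold lower. Over all genes tested by the same filter in those libraries, 475 were higher (4.8%) and 597 lower (6.04%). No gene was 2-fold different in opposite directions. Across the 9878 genes the log2 folds had a Pearson r of 0.88 and a Spearman rho of 0.88, as a description, since genes are not independent replicates.

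Folds were smaller where MI-503 was present. Although the 156 higher genes were chosen on the fold in the presence of MI-503, 110 of them had a larger fold with SD70 alone, and so did 66 of the 75 lower genes. Their median log2 folds were 1.24 and -1.10 in the combination against MI-503, and 1.63 and -1.53 in SD70 against DMSO. In the other direction, 1041 of the 1063 members picked for a 2-fold difference with SD70 alone had a smaller fold on top of MI-503, where the choice of genes favours that outcome. In the combination and SD70 libraries 150 of the 156 and 73 of the 75 genes were within 1.5-fold of each other. MI-503 was within 1.5-fold of DMSO for 114 of the 156 and 65 of the 75. It was at least 1.5-fold above DMSO for 38 of the higher genes and at least 1.5-fold below it for 7 of the lower ones. The same counts over all genes tested were not made, so these describe the chosen genes only.

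Genes of cholesterol synthesis held more 2-fold higher members than any other of the 35 gene lists. Cells make cholesterol from acetyl-CoA through mevalonate and squalene, and the factor SREBP2, encoded by SREBF2, turns these genes on when membrane sterol is low. Of the 26 measured members of the list 15 were at least 2-fold higher in the combination, 0 were lower, and the median log2 fold was 1.09. Over all genes 1.58% were 2-fold higher and 0.759% lower, with a median of -0.07. The list counts below stand against the same shares. HMGCS1, which makes HMG-CoA, lies at chr5:43289395-43313512 on the minus strand of GRCh38 (GENCODE 29) and had the highest fold of any gene tested on the log2(FPKM + 1) scale. It was at 89.7 FPKM in the combination and 10.6 FPKM in MI-503, against 64.1 FPKM with SD70 alone and 11.9 FPKM in DMSO. Its ratio of combination over MI-503 was 8.44 (7.84 to 9.10). The libraries with SD70 were high for this enzyme and those without it low, and the combination was the highest of the 4.

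Later steps were also higher in both libraries with SD70 than in those without it. LSS, which closes squalene epoxide into lanosterol, was at 47.6 FPKM in the combination and 11.4 FPKM in MI-503, against 43.0 FPKM with SD70 and 10.7 FPKM in DMSO. TM7SF2, a sterol reductase, was at 15.2 and 3.70 FPKM in the combination and MI-503, with a ratio of 4.10 (3.50 to 4.81). Other enzymes at least 2-fold higher were ACAT2, MVK, MVD, IDI1, FDFT1, SQLE, MSMO1 and DHCR7. INSIG1, which holds the SREBP precursor in the endoplasmic reticulum, was at 154 and 68.3 FPKM in the combination and MI-503 and at 134 and 76.0 FPKM in SD70 and DMSO. STARD4, a sterol carrier, was also at least 2-fold higher. The members that did not take part were PMVK (log2 fold -0.32), LBR (-0.23) and SCAP (-0.09), the escort of SREBP.

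In this list SD70 had the larger fold in the presence of MI-503. The log2 fold was larger there for 21 of the 26 members, and the median was 1.09 with MI-503, against 0.80 without it. The combination was above SD70 alone for 25 of the 26, or 21 at equal FPKM totals, and MI-503 was below DMSO for 14. How many of all genes lay on these sides was not counted. SREBF2 itself was at 71.5 FPKM in the combination and 46.4 FPKM in MI-503, against 67.9 FPKM with SD70 and 41.4 FPKM in DMSO (ratio 1.54, 1.49 to 1.59). Its promoter is shown because it carries the sterol response element that SREBP2 is known to bind, searched as TCACNCCAC on both strands and given in capitals. The window runs from 250 bases before to 50 bases after the RefSeq start, on the plus strand of GRCh38.p14 at chr22:41832855-41833154.
SREBF2: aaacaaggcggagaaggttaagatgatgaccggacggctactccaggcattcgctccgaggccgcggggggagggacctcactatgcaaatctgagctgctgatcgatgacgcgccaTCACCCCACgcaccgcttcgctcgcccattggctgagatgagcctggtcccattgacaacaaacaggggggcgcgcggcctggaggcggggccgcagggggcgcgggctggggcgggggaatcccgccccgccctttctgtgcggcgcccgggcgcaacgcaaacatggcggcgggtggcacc
Among all 27305 genes with a window 1.388% hold these letters. Windows were found for 20 of the 26 measured cholesterol genes (76.9%), and the rest could not be searched. SREBF2 was the only 1 of the 20 to hold these letters (5%), against 117 of the 8152 tested genes (1.435%). Of the 2-fold higher genes with a window 4 of 112 held them (3.571%).

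**Figure D2:**
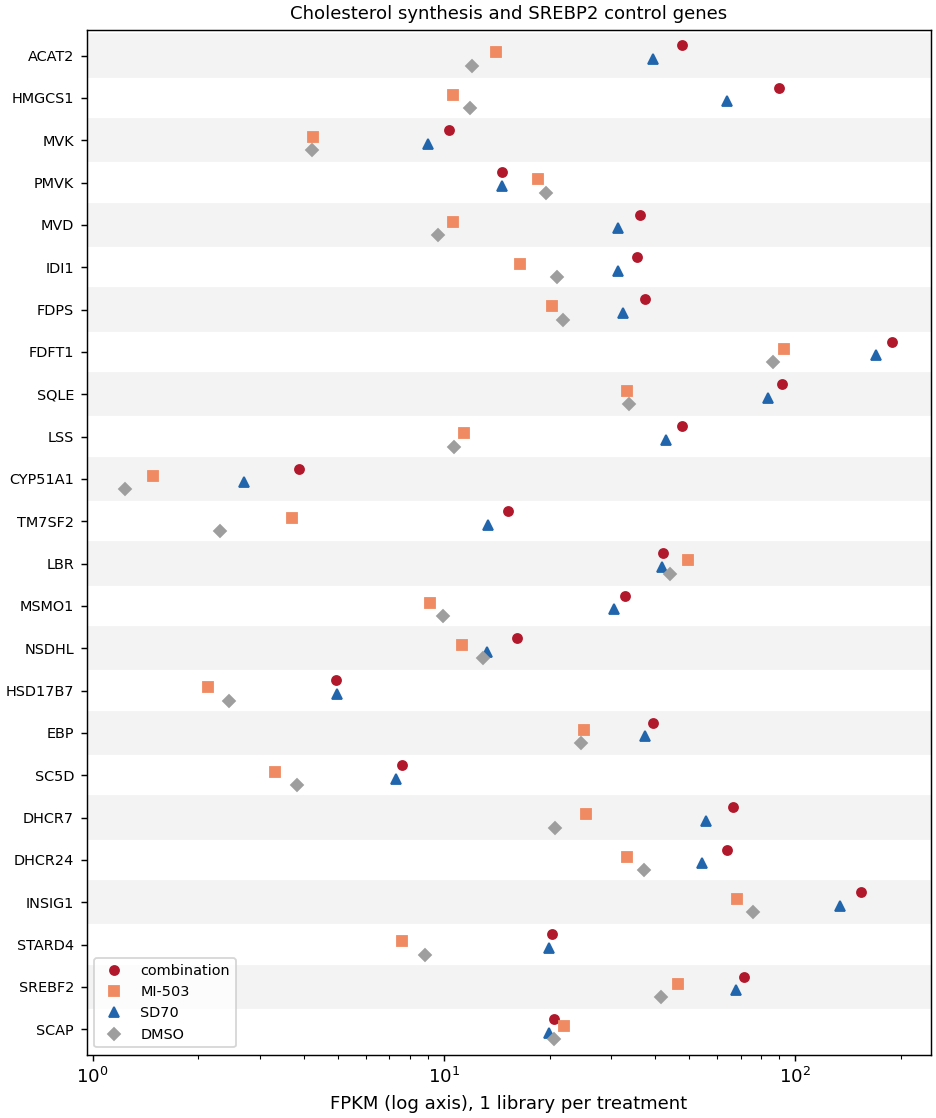
FPKM (log axis) of 24 of the 26 measured cholesterol genes, ordered along the pathway from top to bottom, in the combination, MI-503, SD70 and DMSO libraries, 1 library each. The combination point lies to the right of the MI-503 point for 21 of the 24 genes shown, and to its left for PMVK, LBR and SCAP.

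Fatty acid synthesis showed part of the same pattern. Of 14 measured genes 3 were 2-fold higher, against 1.58% of all genes, and 0 lower. The median log2 fold was 0.50, against 0.30 without MI-503. ACSS2, which makes acetyl-CoA from acetate, was at 44.3 FPKM in the combination and 7.67 FPKM in MI-503, against 41.6 FPKM with SD70 and 5.68 FPKM in DMSO (ratio 5.77, 5.31 to 6.29). The desaturases FADS2 and FADS1 had ratios of 2.95 and 2.26. SREBF1, which encodes the factor of fatty acid synthesis, lay on the other side at 31.8 FPKM in the combination and 63.2 FPKM in MI-503, against 33.1 FPKM with SD70 and 55.8 FPKM in DMSO. ABCA1, the pump that exports cholesterol and a target of the LXR receptors, had the lowest fold of all genes tested, with 1.17 FPKM in the combination and 6.46 FPKM in MI-503, against 1.42 FPKM with SD70 and 2.02 FPKM in DMSO (ratio 0.181, 0.155 to 0.210). Here the MI-503 library was the high one and the other 3 were low. The remaining 4 of 5 measured LXR genes were under 2-fold, with a list median of -0.40 that became -0.12 over the members averaging 5 FPKM or more and -0.23 with a pseudocount of 5.

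Some of the genes that menin and the fusion keep on were lower still with SD70 added. Of 25 measured menin and MLL fusion targets 5 were at least 2-fold lower and 0 higher, 19 were lower at any size, against 57.7% of all genes, and the median log2 fold was -0.22, against 10 genes 2-fold lower and a median of -0.79 in SD70 against DMSO. MEIS1, the homeobox partner of HOXA9, was at 1.01 FPKM in the combination and 3.16 FPKM in MI-503, against 1.45 FPKM with SD70 and 5.84 FPKM in DMSO (ratio 0.320, 0.267 to 0.380). MEF2C, a transcription factor of leukaemic stem cells, was at 4.0 FPKM in the combination and 11.9 FPKM in MI-503, against 4.32 FPKM with SD70 and 29.9 FPKM in DMSO. For these genes DMSO was highest, MI-503 next, and both libraries with SD70 lowest.

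SOCS2, a brake on cytokine signalling, had the ratio 0.315 (0.276 to 0.358), with 2.90 FPKM in the combination and 9.22 FPKM in MI-503, against 2.54 FPKM with SD70 and 22.9 FPKM in DMSO. DACH1 was at 7.68 and 20.5 FPKM in the combination and MI-503 (ratio 0.374), and CDKN2C, an inhibitor of CDK4 and CDK6, at 21 and 55.2 FPKM (ratio 0.381). SATB1 stood just under the limit, with 12.1 and 25.1 FPKM. The HOXA genes showed little of this. HOXA9 was at 16.1 FPKM in the combination and 18.8 FPKM in MI-503, against 17.8 FPKM with SD70 and 25.1 FPKM in DMSO, and the log2 folds of HOXA3, HOXA6 and HOXA10 lay between -0.15 and 0.19. RUNX2 was the member most in the other direction, at 14.7 and 8.30 FPKM in the combination and MI-503 (ratio 1.77, 1.64 to 1.91). MI-503 was below DMSO for 23 of the 25, a comparison that uses the same MI-503 library as the folds above and was not counted over all genes.

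**Figure D3:**
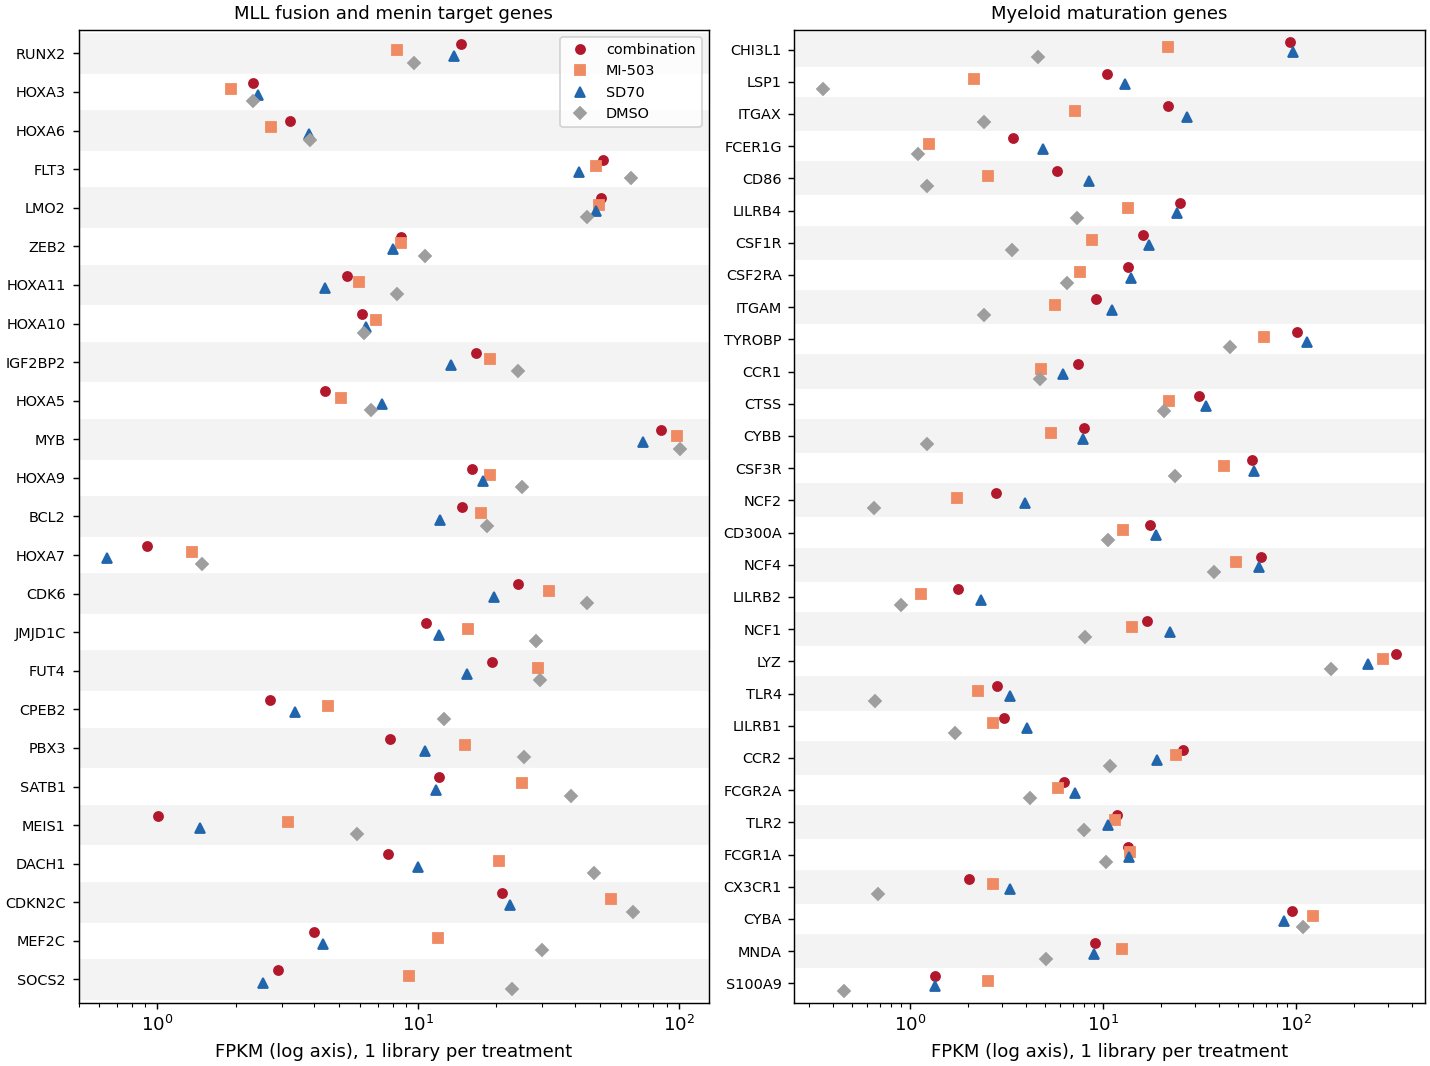
FPKM (log axis) of the 25 menin and MLL fusion targets (left panel) and the 30 myeloid maturation genes (right panel) measured in the combination, MI-503, SD70 and DMSO libraries, 1 library each, ordered by the fold of the combination against MI-503. For the 5 genes at the bottom of the left panel both SD70 libraries lie left of MI-503 and DMSO, and in the right panel MI-503 lies to the right of DMSO for all 30 genes.

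A few genes of monocyte and macrophage maturation were at least 2-fold higher, and fewer than with SD70 alone. Of 30 measured members 3 were 2-fold higher and 0 lower, with a median log2 fold of 0.45, against 15 higher and a median of 1.14 in SD70 against DMSO. In all 30 MI-503 was above DMSO, which was not counted over all genes. CHI3L1, a glycoprotein that macrophages release, was at 93.0 FPKM in the combination and 21.8 FPKM in MI-503, against 96.2 FPKM with SD70 and 4.60 FPKM in DMSO. ITGAX, the integrin CD11c, was at 21.7 FPKM in the combination and 7.19 FPKM in MI-503, against 27.1 FPKM with SD70 and 2.41 FPKM in DMSO. LSP1, an actin-binding protein of leukocytes, was at 10.5 and 2.16 FPKM in the combination and MI-503, and at 13.0 and 0.355 FPKM in SD70 and DMSO. In all 3 genes the levels with SD70 were close to each other while MI-503 stood between them and DMSO. At any size 25 of the 30 were higher in the combination than in MI-503, against 42.3% of all genes. At 1.5-fold 9 were higher, against 5.14%, and 1 lower, against 8.48%. The 5 members lower in the combination include those that follow. CX3CR1 was at 2.02 FPKM in the combination and 2.70 FPKM in MI-503, MNDA at 9.07 and 12.6 FPKM, S100A9 at 1.34 and 2.55 FPKM, whose interval of 0.239 to 1.10 includes 1, and CYBA at 95.2 and 123 FPKM.

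Most of the factors that direct myeloid fate differed little. Of 17 measured 1 was 2-fold higher, EGR1, against 1.58% of all genes. The list median was -0.06 and became 0.01 at equal FPKM totals. CEBPA was at 173 FPKM in the combination and 161 FPKM in MI-503, SPI1 at 129 and 127 FPKM, and IRF8 at 51.9 and 63.3 FPKM. The azurophil granule genes of immature neutrophils had a median of -0.10, with 1 of 13 higher: CST7, an inhibitor of granule proteases, at 79.4 and 38.6 FPKM in the combination and MI-503. Their most abundant member PRTN3, proteinase 3, went the other way, with 2236 FPKM in the combination and 3767 FPKM in MI-503, against 1567 FPKM with SD70 and 3018 FPKM in DMSO. ELANE, neutrophil elastase, was at 1293 and 1989 FPKM in the combination and MI-503, so that both were among the 10 genes with the largest loss in FPKM among those tested.

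Some adhesion and surface molecules of leukocytes were higher. Among 16 measured integrins and adhesion genes 4 were 2-fold higher and 0 lower (median 0.34), and among 12 surface antigens 3 were higher and 0 lower (median 0.66). Of all genes 1.58% were 2-fold higher. ITGB7 was at 12.1 FPKM in the combination and 4.96 FPKM in MI-503, against 15.2 FPKM with SD70 and 1.02 FPKM in DMSO. CNR2, the cannabinoid receptor of immune cells, was at 9.35 and 2.59 FPKM in the combination and MI-503 (ratio 3.62, 3.10 to 4.23), CD244 at 17.4 and 7.42 FPKM, and CD52 at 5.67 and 2.12 FPKM. FLT3 was at 51.1 and 48.2 FPKM, and CD33 at 27.5 and 29 FPKM. Of 15 measured genes of antigen presentation 0 were 2-fold different in the combination against MI-503, where 2.34% of all genes were. There 12 of the 15 were higher at any size, against 42.3% of all genes, and the median was 0.22. In SD70 against DMSO 5 were 2-fold higher, against 4.8% of all genes.

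Part of the NF-kB target genes and regulators were higher. NF-kB factors sit in the cytoplasm until inflammatory signals release them, and they turn on their own inhibitors and subunits as well as chemokines. Of 20 measured members 9 were at least 2-fold higher and 0 lower, with a median log2 fold of 0.78, against 10 higher and a median of 0.90 in SD70 against DMSO. The median of 0.78 became 0.44 over the members averaging 5 FPKM or more and 0.47 with a pseudocount of 5. Among the subunits, RELB was at 9.03 FPKM in the combination and 2.30 FPKM in MI-503, against 11.3 FPKM with SD70 and 1.77 FPKM in DMSO (ratio 3.93, 3.17 to 4.89). NFKB2, the other subunit of the non-canonical pathway, was at 9.24 and 3.07 FPKM in the combination and MI-503 (ratio 3.01, 2.57 to 3.53). NFKB1, RELA and REL had log2 folds between -0.11 and 0.05, so the non-canonical subunits and not the canonical ones were the higher members. TNFAIP3, which shuts the signal off, was at 15.4 FPKM in the combination and 6.6 FPKM in MI-503, against 14.1 FPKM with SD70 and 5.46 FPKM in DMSO. CXCL8, the chemokine that draws neutrophils, was at 6.06 and 1.41 FPKM in the combination and MI-503 and at 6.74 and 0.524 FPKM in SD70 and DMSO.

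The promoter windows of NFKB2 and TNFAIP3 each hold the letters of a kappa B site, searched as GGGA, any base and TTTCC on both strands and set in capitals below, so they are printed as examples of the letters these genes share. They lie on the plus strand of GRCh38.p14 at chr10:102395455-102395754, 1 of 3 RefSeq windows of the gene, and at chr6:137867009-137867308.
NFKB2: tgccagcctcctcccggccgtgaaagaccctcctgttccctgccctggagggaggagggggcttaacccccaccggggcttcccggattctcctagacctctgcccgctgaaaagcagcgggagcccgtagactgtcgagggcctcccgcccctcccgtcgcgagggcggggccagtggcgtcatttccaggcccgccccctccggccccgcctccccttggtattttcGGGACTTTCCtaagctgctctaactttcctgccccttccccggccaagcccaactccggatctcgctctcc
TNFAIP3: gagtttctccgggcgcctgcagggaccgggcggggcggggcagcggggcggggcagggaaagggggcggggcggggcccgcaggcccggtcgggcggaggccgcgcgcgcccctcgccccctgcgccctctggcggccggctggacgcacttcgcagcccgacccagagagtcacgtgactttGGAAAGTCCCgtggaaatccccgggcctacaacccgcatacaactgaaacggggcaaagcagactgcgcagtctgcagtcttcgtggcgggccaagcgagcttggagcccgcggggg
Of the 17 NF-kB genes with a window 7 held such a site (41.18%), against 60 of the 8152 tested genes with a window (0.736%). The list was chosen as targets and regulators of NF-kB, so a high share was favoured by that choice. It is no result of SD70. Of the 2-fold higher genes with a window 2 of 112 held the site (1.786%). A match describes letters in a window and does not show that a factor binds there, and none of the matches printed overlapped a match to another motif searched. The 7 include NFKBIA, TNIP1, REL, NFKB1 and NFKBIB, none of which was 2-fold different.

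Interferon-stimulated and immediate early genes gave shorter lists of higher genes. Of 23 measured interferon-stimulated genes 3 were 2-fold higher, against 1.58% of all genes, and 0 lower, with a median log2 fold of 0.39. They were IFI6, at 13.1 FPKM in the combination and 4.07 FPKM in MI-503, IFIT3, at 1.89 and 0.267 FPKM, and STAT2, a subunit of the factor that interferon activates, at 22.7 and 10.1 FPKM. Of 23 immediate early genes 4 were higher, IER3, BTG2, EGR1 and KLF2, against the same 1.58%, and 0 were lower. KLF2 was at 6.09 FPKM in the combination and 2.48 FPKM in MI-503, against 4.84 FPKM with SD70 and 3.80 FPKM in DMSO.

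Most members of the lists of MYC targets, replication and mitosis were lower, few of them by 2-fold. Of 40 MYC targets and nucleolar genes 3 were at least 2-fold lower and 0 higher, 34 were lower at any size, against 57.7% of all genes, and the median log2 fold was -0.63, against 26 genes 2-fold lower and a median of -1.14 in SD70 against DMSO. MYC itself was at 130 FPKM in the combination and 169 FPKM in MI-503, against 83.2 FPKM with SD70 and 181 FPKM in DMSO (ratio 0.767, 0.742 to 0.794). The 3 were LDHA, which turns pyruvate into lactate, POLR1G, a subunit of RNA polymerase I, and UTP20, a factor of ribosome assembly. LDHA was at 54.6 FPKM in the combination and 126 FPKM in MI-503, against 44.6 FPKM with SD70 and 156 FPKM in DMSO. MXD1, an antagonist of MYC, lay on the other side at 10.4 and 5.72 FPKM in the combination and MI-503 (ratio 1.81, 1.63 to 2.01). The order of the libraries for LDHA was DMSO, MI-503, combination, SD70. Adding SD70 to MI-503 thus left a higher level than SD70 alone, as it did for 37 of the 40 members, or 35 at equal FPKM totals. No such count over all genes was made.

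LDHA carries 2 copies of the E-box CACGTG, the letters that MYC and MAX are known to bind, in 1 of its 2 RefSeq windows, on the plus strand of GRCh38.p14 at chr11:18394313-18394612, where both copies are in capitals.
LDHA: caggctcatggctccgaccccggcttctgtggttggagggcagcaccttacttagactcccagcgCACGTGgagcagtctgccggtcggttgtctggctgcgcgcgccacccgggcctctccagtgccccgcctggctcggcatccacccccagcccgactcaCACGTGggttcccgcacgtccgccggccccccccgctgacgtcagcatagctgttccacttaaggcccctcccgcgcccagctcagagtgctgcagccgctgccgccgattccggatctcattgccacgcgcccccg
An E-box stood in the windows of 15 of 33 genes of the list (45.45%) and of 1086 of the 8152 tested genes (13.32%). A high share is favoured by choosing the list as MYC targets. Of the 2-fold lower genes with a window 17 of 59 held an E-box (28.81%). USF and other factors are known to read the same letters.

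All 43 measured replication genes were lower in the combination than in MI-503, or 42 of them, without CDT1, at equal FPKM totals, and 8 were at least 2-fold lower, with a median log2 fold of -0.80. At 1.5-fold 37 of the 43 were lower, against 8.48% of all genes. RFC3, a subunit of the loader of the PCNA clamp, was at 15.7 FPKM in the combination and 38.7 FPKM in MI-503, against 15.7 FPKM with SD70 and 48.3 FPKM in DMSO (ratio 0.407, 0.372 to 0.445). MCM4, a subunit of the replicative helicase, was at 61.1 and 135 FPKM in the combination and MI-503 and at 49.4 and 154 FPKM in SD70 and DMSO. The other 6 were UNG, FEN1, GINS2, MCM6, MCM10 and UHRF1, and GINS1 was just under the limit. CDT1, a licensing factor, was at 49.3 and 50.8 FPKM in the combination and MI-503 and was the member with the least difference. SD70 had the larger fold without MI-503 for 41 of the 43, which was not counted over all genes.

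The windows of RFC3 and GINS2 hold the letters of an E2F site, searched as TTTCNCGC on both strands and shown in capitals as its reverse complement, close to the start of each gene. They lie at chr13:33817899-33818198 on the plus strand and at chr16:85688905-85689204 on the minus strand of GRCh38.p14.
RFC3: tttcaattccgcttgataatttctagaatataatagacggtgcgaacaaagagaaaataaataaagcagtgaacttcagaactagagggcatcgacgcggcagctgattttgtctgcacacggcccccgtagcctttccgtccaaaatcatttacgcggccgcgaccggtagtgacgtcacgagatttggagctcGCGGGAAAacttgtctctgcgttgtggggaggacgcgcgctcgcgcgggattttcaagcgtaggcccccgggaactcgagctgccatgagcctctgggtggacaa
GINS2: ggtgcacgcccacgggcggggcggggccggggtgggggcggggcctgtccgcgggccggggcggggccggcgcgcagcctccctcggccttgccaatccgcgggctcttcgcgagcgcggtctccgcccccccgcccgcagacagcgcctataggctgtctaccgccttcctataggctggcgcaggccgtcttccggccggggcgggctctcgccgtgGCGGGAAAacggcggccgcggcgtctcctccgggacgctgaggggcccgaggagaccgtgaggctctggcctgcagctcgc
These letters stood in 14 of 38 replication genes with a window (36.84%), against 518 of 8152 tested genes (6.354%). That share describes the list, whose choice favours it, and is no result of SD70. Of the 2-fold lower genes with a window 7 of 59 held the letters (11.86%).

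For most genes of mitosis the combination was below SD70 alone as well as below MI-503. All 35 measured genes were lower in the combination than in MI-503, against 57.7% of all genes, and 4 of them 2-fold, with a median log2 fold of -0.79. In the combination 31 of 35 were lower than with SD70, or 33 at equal FPKM totals, a comparison not counted over all genes. ARHGAP11A, a GTPase-activating protein of dividing cells, was at 12.0 FPKM in the combination and 38.5 FPKM in MI-503, against 13.0 FPKM with SD70 and 52.0 FPKM in DMSO (ratio 0.311, 0.292 to 0.332). CCNB1, the cyclin of mitotic entry, was at 31.9 FPKM in the combination and 72.8 FPKM in MI-503, against 36.0 FPKM with SD70 and 86.7 FPKM in DMSO. CDC20 and BUB1, an activator of the anaphase-promoting complex and a kinase of the spindle checkpoint, had ratios of 0.462 and 0.474. The steps below SD70 were small, as the values of CCNB1 show, and were not tested. Of 17 G1 regulators 1 was 2-fold lower, CDKN2C, while CDKN1A, the p21 inhibitor, was at 72.6 FPKM in the combination and 48.5 FPKM in MI-503, against 88.9 FPKM with SD70 and 58.6 FPKM in DMSO.

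A few chaperones of the cytosol and the endoplasmic reticulum were at least 2-fold lower. Of 27 heat shock genes 2 were 2-fold lower and 24 were lower at any size, against 57.7% of all genes, with a median log2 fold of -0.66, against 14 genes 2-fold lower and a median of -1.07 without MI-503. HSPH1, a nucleotide exchange factor of HSP70, was at 18.7 FPKM in the combination and 43.5 FPKM in MI-503, against 19.5 FPKM with SD70 and 62.8 FPKM in DMSO. HSPE1, a mitochondrial co-chaperonin with many near-identical pseudogenes, so that its counts are uncertain, was at 9.55 and 20.4 FPKM in the combination and MI-503. HSP90AA1, the inducible HSP90, was at 158 FPKM in the combination and 318 FPKM in MI-503, against 143 FPKM with SD70 and 459 FPKM in DMSO, just under 2-fold. HSF1, which encodes the main factor of the response, was at 46.1 and 45.8 FPKM in the combination and MI-503. Among 24 genes of the endoplasmic reticulum 3 were 2-fold lower, SDF2L1, HSPA5 and MANF, and 7 were higher at any size. HSPA5, the chaperone BiP, was at 66.8 FPKM in the combination and 160 FPKM in MI-503, against 54.4 FPKM with SD70 and 188 FPKM in DMSO.

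The window of HSP90AA1, 1 of 2 of the gene, on the minus strand of GRCh38.p14 at chr14:102086995-102087294, holds the letters of a heat shock element, searched as GAA, TTC and GAA with a pair of any bases between them on both strands and given in capitals.
HSP90AA1: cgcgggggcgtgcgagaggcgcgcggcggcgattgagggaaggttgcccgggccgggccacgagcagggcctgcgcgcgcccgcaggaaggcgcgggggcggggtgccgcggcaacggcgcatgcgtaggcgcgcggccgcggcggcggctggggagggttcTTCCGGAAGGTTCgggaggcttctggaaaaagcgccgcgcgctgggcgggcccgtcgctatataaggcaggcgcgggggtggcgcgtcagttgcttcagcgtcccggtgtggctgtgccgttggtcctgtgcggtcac
Of 24 heat shock genes with a window 6 held the element (25%), against 37 of 8152 tested genes (0.4539%). Choosing the list as heat shock genes favours a high share. Of the 2-fold lower genes with a window 1 of 59 held it (1.695%).

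Genes of the ATF4 response were mostly higher with SD70 on top of MI-503, and mostly not without it. ATF4 is translated when amino acids run short or the endoplasmic reticulum is stressed, and it turns on amino acid synthesis, transport and, later, CHOP, encoded by DDIT3. Of 28 measured members 5 were at least 2-fold higher in the combination than in MI-503, 0 were lower and 25 were higher at any size, against 42.3% of all genes, with a median log2 fold of 0.42. In SD70 against DMSO 2 were 2-fold higher and 3 lower, with a median of -0.18. DDIT4, an inhibitor of mTORC1, was at 15.8 FPKM in the combination and 2.93 FPKM in MI-503, against 14.2 FPKM with SD70 and 10.4 FPKM in DMSO (ratio 5.39, 4.32 to 6.79). CHAC1, which degrades glutathione, was at 3.68 FPKM in the combination and 0.716 FPKM in MI-503, against 2.54 FPKM with SD70 and 6.08 FPKM in DMSO (ratio 5.13, 3.26 to 8.41). In both genes MI-503 was the lowest of the 4 libraries, and the combination was above SD70.

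DDIT3 was at 7.02 and 2.06 FPKM in the combination and MI-503 and at 6.03 and 2.84 FPKM in SD70 and DMSO. SLC7A11, the cystine importer, was at 3.71 and 0.950 FPKM in the combination and MI-503 (ratio 3.91, 3.25 to 4.73), and CTH, which makes cysteine, at 4.47 and 1.46 FPKM. SESN2, an inhibitor of mTORC1 signalling, was at 9.70 FPKM in the combination and 4.77 FPKM in MI-503, against 7.90 FPKM with SD70 and 9.91 FPKM in DMSO. Taking the list as a whole, MI-503 was below DMSO for 25 of 28 genes and the combination was above SD70 for 24, or 22 at equal FPKM totals, while SD70 was below DMSO for 17. The first of these counts uses the MI-503 library that the folds also rest on. None of these counts was made over all genes, and the FPKM total was 304320 in the combination and 293684 with SD70. ATF4 itself was at 170 FPKM in the combination and 113 FPKM in MI-503, against 156 FPKM with SD70 and 160 FPKM in DMSO (ratio 1.5, 1.44 to 1.55). The amino acid transporters SLC1A5 and SLC7A5 lay on the other side, with ratios of 0.694 and 0.841.

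CHAC1 is shown because it had the largest difference among these genes between the folds with and without MI-503, 2.44 on the log2 scale, and its window on the plus strand of GRCh38.p14 at chr15:40953221-40953520 holds a C/EBP-ATF site, searched as TGATGNAA on both strands and given in capitals as its reverse complement.
CHAC1: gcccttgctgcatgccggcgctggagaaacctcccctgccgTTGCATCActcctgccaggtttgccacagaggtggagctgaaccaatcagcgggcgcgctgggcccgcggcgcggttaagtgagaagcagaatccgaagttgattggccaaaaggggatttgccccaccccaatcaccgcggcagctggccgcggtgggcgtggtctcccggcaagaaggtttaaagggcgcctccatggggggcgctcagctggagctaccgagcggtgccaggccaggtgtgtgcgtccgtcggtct
Such letters were found in 7 of 24 genes of the list with a window (29.17%) and in 200 of 8152 tested genes (2.453%). The transporter SLC1A5, lower in the combination, is 1 of the 7. Choosing the list as genes of the ATF4 response favours a high share. Of the 2-fold higher genes with a window 5 of 112 held the letters (4.464%).

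**Figure D4:**
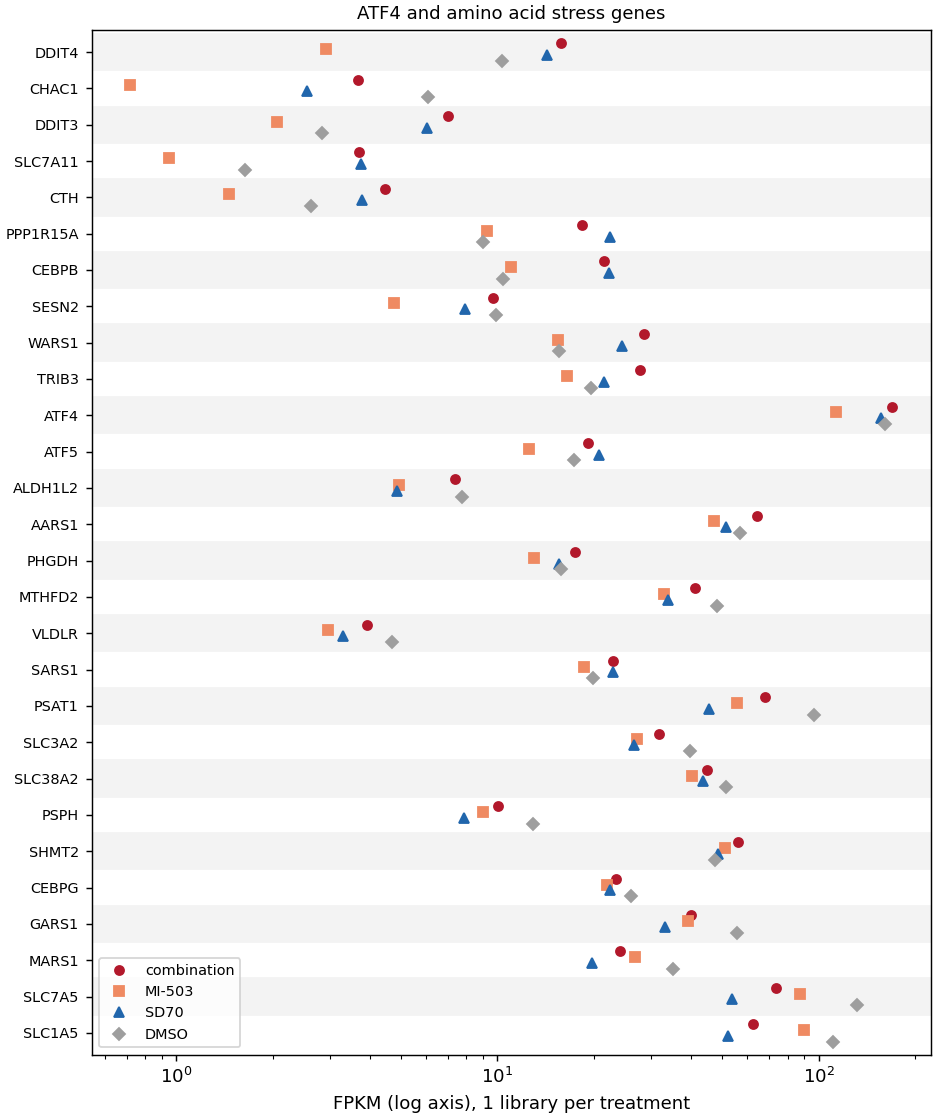
FPKM (log axis) of the 28 measured ATF4 and amino acid stress genes in the combination, MI-503, SD70 and DMSO libraries, 1 library each, ordered by the fold of the combination against MI-503. MI-503 is the leftmost point for DDIT4, CHAC1, DDIT3, SLC7A11, CTH and SESN2, and DMSO is the rightmost for SLC7A5 and SLC1A5 at the bottom.

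Other stress and clearance lists each held some 2-fold higher genes, where 1.58% of all genes were 2-fold higher. Of 23 NRF2 and thioredoxin genes 2 were higher, SQSTM1 and SLC7A11, and the median log2 fold was 0.18. SQSTM1, the autophagy receptor p62, was at 32.5 FPKM in the combination and 12.1 FPKM in MI-503, against 38.2 FPKM with SD70 and 10.1 FPKM in DMSO. NQO1 was at 3.74 and 4.37 FPKM in the combination and MI-503. Of 33 lysosome and autophagy genes 4 were higher and 0 lower (median 0.32): DNASE2, SQSTM1, GABARAPL1 and WIPI1. Of 26 p53 targets 3 were higher, BTG2, SAT1 and TP53INP1, and 0 lower, with a median of 0.27. Among 24 BCL2 family and apoptosis genes BMF, a BH3-only killer, was at 19.4 FPKM in the combination and 6.68 FPKM in MI-503, and BCL2A1, a survival protein, at 4.69 and 1.29 FPKM, while BCL2 was at 14.8 and 17.4 FPKM. Of 8 genes of the aryl hydrocarbon receptor list 2 were higher; CYP1B1, a cytochrome the receptor induces, was at 102 FPKM in the combination and 36.0 FPKM in MI-503, against 143 FPKM with SD70 and 19.8 FPKM in DMSO. Among iron genes FTL, the ferritin light chain, had the largest gain in FPKM of the protein-coding genes tested, with 4400 FPKM in the combination and 2885 FPKM in MI-503, against 4831 FPKM with SD70 and 2201 FPKM in DMSO (ratio 1.53, 1.51 to 1.54), and BLVRB was the only 1 of 16 past 2-fold.

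Metabolic genes divided. Of 30 nuclear-encoded respiratory chain genes 0 were 2-fold different, against 2.34% of all genes. Yet all 30 were lower in the combination than in MI-503, against 57.7% of all genes, with a median log2 fold of -0.45. At equal FPKM totals 29 of them, without SDHC, were lower. Of 24 genes of nucleotide and polyamine synthesis 22 were lower at any size and 0 of them 2-fold (median -0.52), with PAICS, of purine synthesis, at 22.8 and 42.1 FPKM in the combination and MI-503. SAT1, which breaks polyamines down, was higher, at 45.1 and 20.5 FPKM. Of 27 glycolysis and hypoxia genes 3 were higher and 1 lower; VEGFA was at 10.8 and 4.46 FPKM in the combination and MI-503, PFKFB4 at 4.41 and 1.44 FPKM and ALDOC at 6.67 and 1.99 FPKM, whereas LDHA was the lower one. Cytosolic ribosomal protein and elongation factor genes were slightly higher in 33 of 34 cases, or in all 34 at equal FPKM totals, with a median of 0.15 and a highest log2 fold of 0.40 for EEF2, and other copies in the genome can share their reads. Of the 13 protein-coding genes of mitochondrial DNA 10 were lower at any size, or 9 at equal FPKM totals, against 57.7% of all genes, with MT-CO3 at 6865 FPKM in the combination and 10006 FPKM in MI-503, against 6571 FPKM with SD70 and 9507 FPKM in DMSO.

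None of the genes of the agents' own targets was 2-fold different, and MEN1 was lower in both libraries with SD70 than in those without it. KDM4C was at 4.25 FPKM in the combination and 3.79 FPKM in MI-503, against 4.61 FPKM with SD70 and 3.70 FPKM in DMSO (ratio 1.12, 1.0 to 1.25). MEN1, which encodes menin, was at 15.7 FPKM in the combination and 22.6 FPKM in MI-503, against 13.1 FPKM with SD70 and 20.3 FPKM in DMSO (ratio 0.694, 0.641 to 0.752). KMT2A, which encodes MLL, was at 2.17 and 1.87 FPKM in the combination and MI-503, and MLLT3, which encodes AF9, at 1.39 and 1.27 FPKM, so that the fusion's own transcript cannot be separated from those of either gene. Of 22 histone demethylases, 14 writers and readers of H3 lysine 9 methylation, and 22 genes of MLL, menin and elongation complexes, 0 were 2-fold different. Of all genes 2.34% were, so a count of 0 in lists of this size is near that share. Their lowest log2 folds were -0.65, -0.66 and -0.57, and their highest 0.58, 0.43 and 0.28. Their medians were -0.02, -0.09 and -0.02, of which the first and the last became 0.06 at equal FPKM totals. Among 16 measured histone genes 5 were 2-fold higher and 0 lower, led by H2BC5 at 9.28 FPKM in the combination and 2.57 FPKM in MI-503, against 12.5 FPKM with SD70 and 0.760 FPKM in DMSO, while the variant H2AZ1 was at 76.3 and 146 FPKM in the combination and MI-503. Histone genes resemble each other closely and their counts are uncertain.

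**Figure D5:**
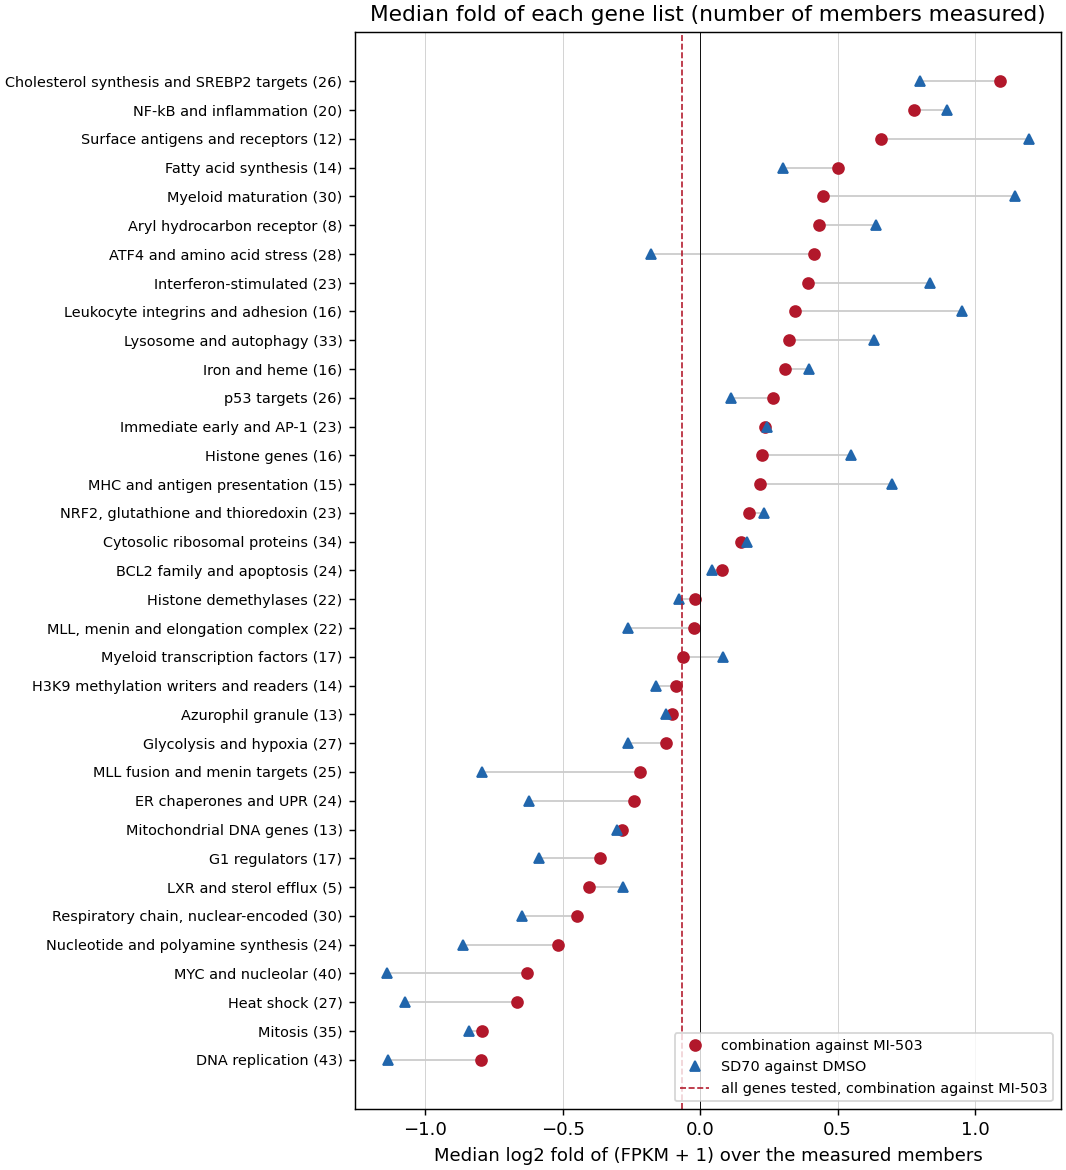
Median log2 fold of (FPKM + 1) over the measured members of each of 35 gene lists (number measured in brackets), for the combination against MI-503 (circles) and SD70 against DMSO (triangles). The cholesterol list is highest at 1.09 and the replication list lowest at -0.80 in the combination against MI-503, and the ATF4 list has medians of 0.42 with MI-503 and -0.18 without it.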

How the data were processed

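RNA was taken up in Trizol and sequenced from libraries made by Illumina protocols, per the labels' protocols. Per the submitters' processing notes, BWA, Bowtie and hg38 were used, with no version or role named. The counter, the annotation and the strand setting are not given in the sources used here, so overlapping antisense genes cannot be told apart. The authors deposited 1 table per library with 58735 gene identifiers and values read here as FPKM, which the header does not name: multiplied by GENCODE 29 exon lengths they gave whole reads, within 0.01 of a read, for 100% of values. The FPKM as deposited were already scaled between libraries as median-of-ratios size factors would do (difference 0.0% over 18255 genes).

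Folds used a pseudocount of 1, and a gene was counted from 2-fold. With 1 library per treatment no test was made. Intervals are exact 95% Clopper-Pearson intervals on the recovered reads (scipy 1.17.1), tested on simulated data; without molecular identifiers, PCR copies are not independent molecules. The 35 gene lists, the members and the rule for named genes were chosen with earlier results of these data known. That rule took the 15 highest and 15 lowest folds, the 8 largest differences of folds with and without MI-503 in each direction (genes averaging 5 FPKM or more across all 4 libraries), the 10 largest gains and losses in FPKM, up to 4 genes at each end of every list with its regulators, and the agents' targets; where all 2-fold members of a list are named, some fall outside it. Some items are not reported here. Promoters are RefSeq windows on GRCh38.p14, found for 82.5% of the genes tested. Python 3.11.15, numpy 2.4.6, pandas 2.3.3 and matplotlib 3.10.9 were used.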

Additional observations from a re-analysis of the deposited data

Results flagged for a closer look

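For 5 genes that were at least 2-fold different in one of the settings, the fold of SD70 had opposite directions with and without MI-503, and neither counting interval included a ratio of 1. The differences below are the log2 fold of the combination over MI-503 minus that of SD70 over DMSO; with 1 library per treatment they were not tested. CHAC1 differed by 2.44: it was at 3.68 FPKM in the combination and 0.716 FPKM in MI-503, and at 2.54 FPKM with SD70 and 6.08 FPKM in DMSO. EGR1, an immediate early factor, differed by 1.61, with 4.22 and 1.49 FPKM in the combination and MI-503 and 2.90 and 4.68 FPKM in SD70 and DMSO. OCSTAMP, known from osteoclast fusion, differed by 1.52, with 11.2 and 4.89 FPKM in the combination and MI-503 and 8.80 and 12.6 FPKM in SD70 and DMSO. PSAT1, of serine synthesis, differed by 1.35, with 68.2 and 55.8 FPKM in the combination and MI-503 and 45.6 and 96.6 FPKM in SD70 and DMSO. CX3CR1, the fractalkine receptor, differed by -1.64, with 2.02 and 2.70 FPKM in the combination and MI-503 and 3.29 and 0.688 FPKM in SD70 and DMSO. In the first 4 genes DMSO held the highest level.

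Reads in some genes outside the protein-coding ones took a larger share in both libraries with SD70. Mitochondrial ribosomal RNA made up 1.433% of reads in the combination and 0.9277% in MI-503. MT-RNR2 was at 8391 FPKM in the combination and 5507 FPKM in MI-503, while MT-RNR1 was at 947 and 930 FPKM. Genes typed as lincRNA or antisense made up 0.8252% in the combination and 0.6415% in MI-503, against 0.8292% with SD70 and 0.6127% in DMSO.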

How the results depend on the processing

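The counts of 156 higher and 75 lower genes moved with the pseudocount, the scaling and the genes admitted. They were 272 and 151 with a pseudocount of 0.1, 29 and 20 with one of 5, 87 and 70 with a mean of at least 5 FPKM (55.41% of them higher), and 364 and 209 over all gene types. At equal FPKM totals they were 187 and 45 (80.6% higher), and with the median gene at 0 they were 180 and 47 (79.3% higher). With no filter they were 160 and 75, with the mean taken over 4 libraries 155 and 75, and without genes under 300 bases 156 and 75. No named gene past 2-fold changed direction under the alternatives in which it was tested, which left out 60 named genes at a mean of at least 5 FPKM and 1 without short genes; 9 named genes under 2-fold changed sign at equal totals and 7 with the median at 0. List medians that moved by over 1.5 times included, with a pseudocount of 5, interferon-stimulated (0.20) and lysosome genes (0.20). There iron genes went from 0.31 to 0.16, immediate early genes from 0.24 to 0.14 and histone genes from 0.23 to 0.09. Over members averaging 5 FPKM or more, endoplasmic reticulum genes went from -0.24 to -0.46, glycolysis genes from -0.12 to -0.24 and histone genes to -0.03. At equal totals they included menin targets (-0.14), azurophil genes (-0.03) and ribosomal proteins (0.23), beside those near 0 and those given with their lists. Ratios of genes with few reads have wide intervals, which cover neither replicate spread nor scaling. No paired analysis was possible because each treatment has 1 library, and no replicate could be left out.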

Other observations

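Most of the genes at least 2-fold different belonged to no list: 91 of the 156 higher and 49 of the 75 lower. SIGLEC6, a sialic acid receptor, was at 9.82 FPKM in the combination and 0.722 FPKM in MI-503, against 8.97 FPKM with SD70 and 0.154 FPKM in DMSO. The receptor tyrosine kinase AXL was at 8.57 and 1.27 FPKM in the combination and MI-503, the amino acid oxidase IL4I1 at 7.06 and 0.575 FPKM, and the serine dehydratase SDS at 3.94 and 0.149 FPKM. TSC22D3, the glucocorticoid-induced leucine zipper, was at 21.6 FPKM in the combination and 5.38 FPKM in MI-503, against 26.3 FPKM with SD70 and 4.40 FPKM in DMSO. KLHDC8B and LINC03040, the second typed as protein-coding in GENCODE 29, had ratios of 13.1 and 15.8. CCL3L3, a near copy of CCL3, was at 4.49 and 0.567 FPKM, so its reads are uncertain.

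Among the lowest genes outside the lists, TRIP13, a remodeller of the spindle checkpoint, was at 5.99 FPKM in the combination and 17.2 FPKM in MI-503, against 5.94 FPKM with SD70 and 17.8 FPKM in DMSO. PRDX4, a peroxiredoxin of the endoplasmic reticulum, was at 13.1 and 34.0 FPKM in the combination and MI-503, NEFH at 5.23 and 14.6 FPKM, HMX2 at 2.94 and 8.66 FPKM, and HPDL at 7.06 and 18.6 FPKM. SMN1 was at 8.87 FPKM in the combination and 24.3 FPKM in MI-503, against 4.15 FPKM with SD70 and 6.22 FPKM in DMSO, while SMN2, its near-identical copy, was at 2.79 and 3.60 FPKM in the combination and MI-503, so how reads were split between them is uncertain. The same holds for GOLGA8Q (8.93 and 26.2 FPKM), and pseudogenes can share reads of SNRPG (8.14 and 27.2 FPKM) and RPL39L (2.5 and 8.64 FPKM).

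Of the 156 higher genes 10 were under 1.5-fold higher in SD70 against DMSO: ADM2, CHAC1, CTH, DDIT4, EGR1, IDI1, INHBA, KLF2, OCSTAMP and UTF1, named after their values were seen. INHBA was at 3.50 FPKM in the combination and 0.826 FPKM in MI-503, against 1.74 FPKM with SD70 and 1.63 FPKM in DMSO. Of the 75 lower genes 3 were under 1.5-fold lower there, ABCA1, HSD11B1 and SMN1, and MI-503 was the highest of the 4 libraries for each.

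Folds differed by at least 2-fold between the settings for 29 genes in the more positive direction with MI-503 and for 80 in the more negative one. Among genes averaging 5 FPKM or more over the 4 libraries, CHI3L1 had the most negative difference, -2.07, followed by ITGB7 at -1.87, and POLR3G was among the most positive at 3.20 FPKM in the combination and 6.62 FPKM in MI-503, against 2.06 FPKM with SD70 and 11.9 FPKM in DMSO. For CYBB, the phagocyte oxidase, the SD70 libraries were level, at 7.94 FPKM in the combination and 7.94 FPKM with SD70 alone, while MI-503 was at 5.42 FPKM and DMSO at 1.23 FPKM.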
